A study of Mus musculus with 9 samples.

Results

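In all, 10 genes of oxidant defence were followed in nestin-reporter cells from 2 regions of the adult mouse brain: the superoxide dismutases Sod1, Sod2 and Sod3, catalase (Cat), the oxidant-inducible enzymes Hmox1, Nqo1 and Srxn1, the regulators Nfe2l2 and Keap1, and the mitochondrial carrier Ucp2. They were taken by symbol from a fixed set of names, with no threshold on their measured values, although earlier results of these data were known when the set was drawn up. All 10 were found among the 14477 genes of the table, and all 10 had reads in each of the 9 libraries. Cells were taken from the dentate gyrus of the hippocampus (DG, 5 libraries) or the subventricular zone (SVZ, 4 libraries), both regions in which neurons are made in adulthood. Every group came from untreated mice in standard housing of the strain B6.Cg-Tg(Nes-EGFP)1Yamm, in which nestin regulatory sequence switches on a green fluorescent protein by which the cells were sorted. The labels give no age beyond adult and do not say whether a library came from 1 mouse or a pool, so p-values refer only to the scatter among these libraries, which may be technical in part.

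Superoxide leaks from the respiratory chain and is made by oxidases. Superoxide dismutases turn it into hydrogen peroxide: SOD1 works in the cytosol, SOD2 in the mitochondrial matrix, and SOD3 is secreted and bound to the extracellular matrix. Catalase breaks down hydrogen peroxide in peroxisomes. The transcription factor NRF2, encoded by Nfe2l2, is held at low levels by the adaptor KEAP1, which hands it to a ubiquitin ligase. When oxidants or electrophiles modify KEAP1, NRF2 escapes and pairs with a small MAF protein on antioxidant response elements of its target genes, among them Hmox1, Nqo1 and Srxn1. NRF2 is regulated mainly as a protein, so its mRNA level does not measure its activity.

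The core of the antioxidant response element was searched in RefSeq promoter windows (build GRCm38.p6, 250 bases before to 50 after the transcription start), since several of these genes differ together between the regions below. The motif was TGACNNNGC on either strand, read as GCNNNGTCA where it lies on the opposite strand, and no other motif was searched. Windows were matched for 8 of the 10 genes, the others being Sod3 and Hmox1. The motif occurred in 4 of the 8 windows, those of Nfe2l2, Sod1, Srxn1 and Ucp2, and in 12.4% of all 32851 windows. A match is a description of the letters, not evidence of binding. An element farther from the start than these windows reach would not be seen, so a window without the motif does not show a gene without it. The stretches that hold the 4 matches are given here on the strand of the gene, 5′ to 3′, with the motif in capitals. For Nfe2l2 (chr2:75704794-75704913, minus strand) the motif began at position -240, counted from the transcription start. For Ucp2 (chr7:100493208-100493327, plus strand) and Sod1 (chr16:90220612-90220731, plus strand) it lay on the opposite strand and began at -66 and -56. For Srxn1 (chr2:152105542-152105570, plus strand) it lay on the opposite strand within the transcript, from base 29 after the start.
Nfe2l2: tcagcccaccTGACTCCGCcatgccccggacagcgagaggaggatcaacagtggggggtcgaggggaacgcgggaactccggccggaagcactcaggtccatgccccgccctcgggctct
Ucp2: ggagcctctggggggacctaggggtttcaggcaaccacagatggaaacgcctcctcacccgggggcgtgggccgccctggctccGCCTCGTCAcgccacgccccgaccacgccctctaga
Sod1: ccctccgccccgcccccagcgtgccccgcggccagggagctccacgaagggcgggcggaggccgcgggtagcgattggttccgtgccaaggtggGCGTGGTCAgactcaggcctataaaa
Srxn1: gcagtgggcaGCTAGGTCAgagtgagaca

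Of the 4 genes with the motif in the window, Nfe2l2, Srxn1 and Ucp2 were higher in DG and Sod1 did not pass the test. Among the windows without it were those of Nqo1 and Cat, which passed as higher in DG, and of Sod2 and Keap1, which did not pass. In a list of 32 NRF2 target genes, 28 had at least 1 window and 11 of these held the motif. Counted by window, it occurred in 12 of their 38 (31.6%), against 12.4% of all windows.

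Of the 10 genes, 7 were higher in DG, and none was higher in SVZ (limma; 0 also at an unadjusted p under 0.05 and 0 by limma voom). In order of size, the differences were 61.6-fold for Sod3, 5.14-fold for Hmox1, 4.99-fold for Ucp2, 2.71-fold for Nqo1, 2.04-fold for Nfe2l2, 1.72-fold for Srxn1 and 1.31-fold for Cat. Sod1, Sod2 and Keap1 did not pass the test (limma, Benjamini-Hochberg adjusted p under 0.05 over all genes). Across the table, 32.9% of genes were called higher in DG, 33.7% higher in SVZ and 66.6% in either direction, so 7 of 10 called in either direction is close to the background share. For 6 of the 10 genes the DG and SVZ values did not overlap, each time with DG above, where 58% of all genes showed no overlap in one direction or the other. The median log2 fold change of the 10 was 0.90, against -0.07 for all genes. Fold changes rest on log2 CPM, reads scaled to the library total and raised by a prior of 1 read, which understates differences of genes with few reads.

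**Figure D1:**
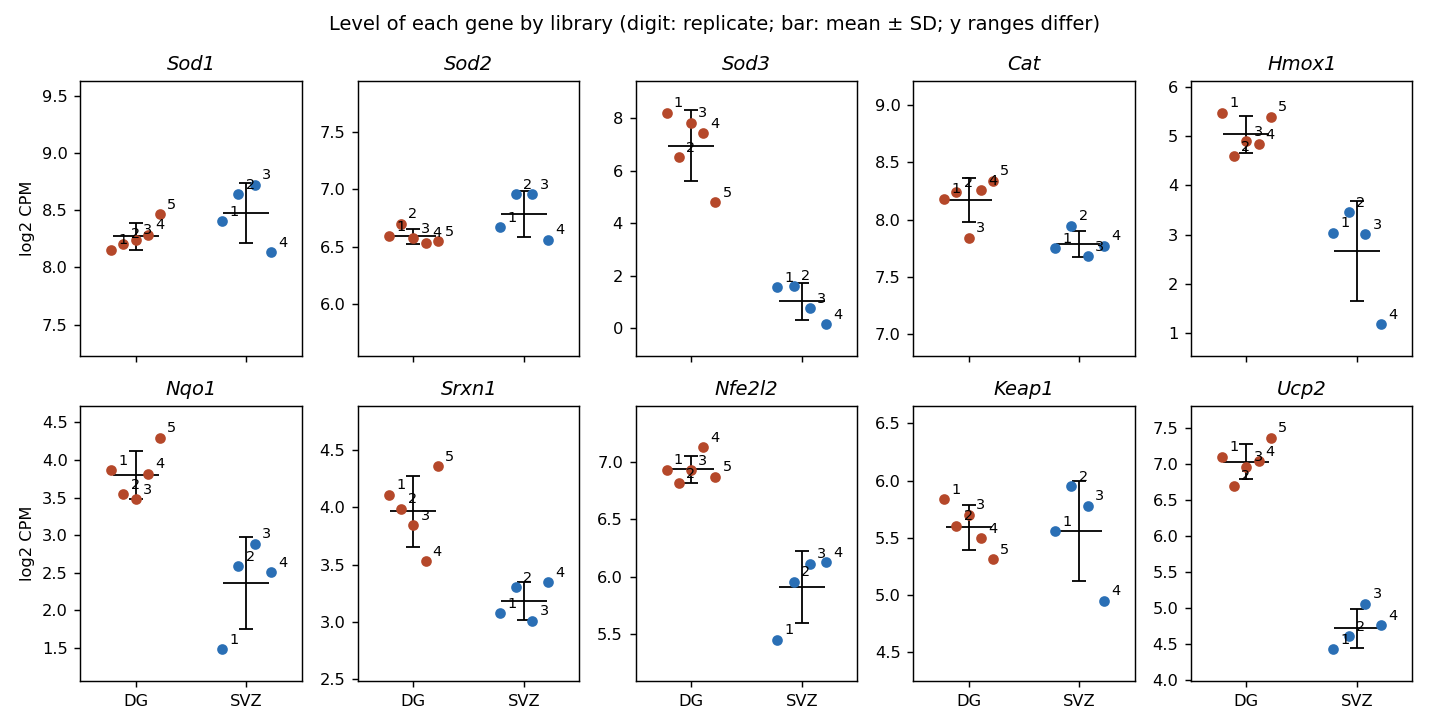
Level of each of the 10 genes in log2 CPM (vertical axis, with a different range in each panel) in the 5 DG and 4 SVZ libraries, each point 1 library numbered by replicate, with the mean and SD as bars. Sod3, Hmox1, Nqo1, Srxn1, Nfe2l2 and Ucp2 show no overlap between the regions, and Sod1, Sod2, Cat and Keap1 overlap.

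**Figure D2:**
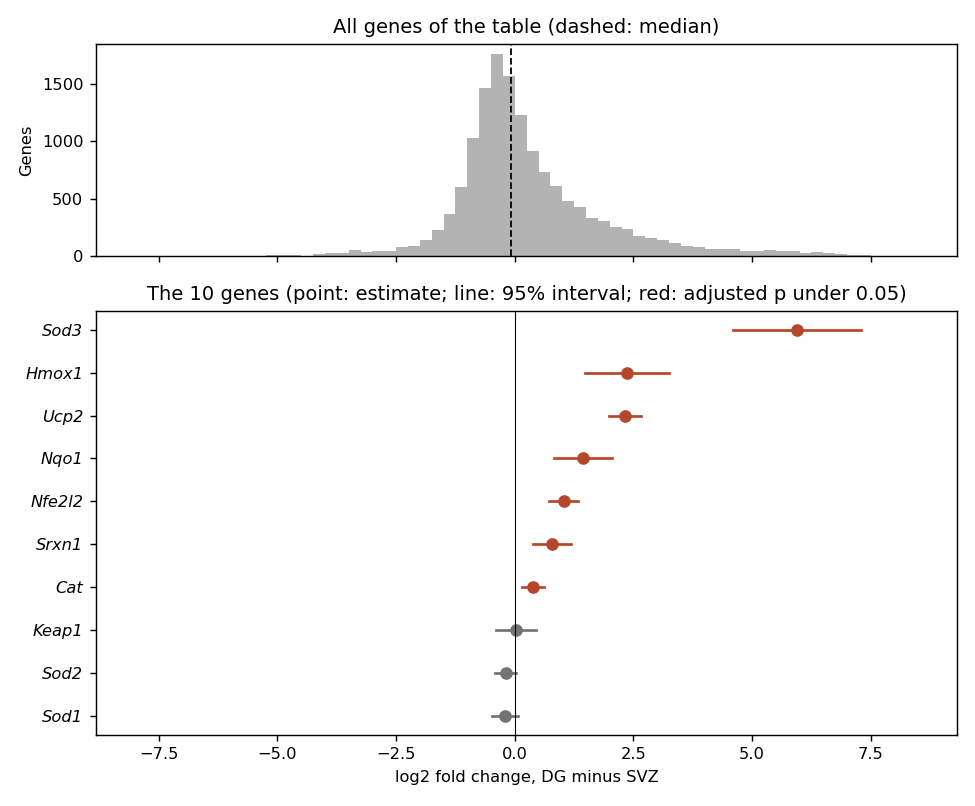
Log2 fold change, DG minus SVZ (horizontal axis), of all 14477 genes as a histogram (top) and of the 10 genes with 95% intervals (bottom, red where the adjusted p is under 0.05). Sod3 at 5.94 lies far in the right tail, and Sod1, Sod2 and Keap1 have intervals that include 0.

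The same libraries differed in the markers of other cell types, and in bulk RNA fewer cells of a type and less RNA per cell cannot be told apart. All 16 endothelial, all 15 measured pericyte and smooth muscle and all 8 border macrophage markers were higher in DG, as were 11 of 12 fibroblast and meningeal markers. The summed level of the endothelial list was 1352 to 2635 CPM in DG and 17.96 to 82.62 CPM in SVZ, that of the pericyte list 6558 to 13590 against 92.4 to 220.9 CPM, and that of the border macrophage list 221.7 to 963.8 against 4.72 to 18.7 CPM. Fibroblast markers summed to 1104 to 1898 CPM in DG and 78.2 to 151.1 CPM in SVZ. Astroglial markers were higher in DG for 12 of 13 genes (22240 to 33440 against 2783 to 5045 CPM), and all 12 markers of dividing cells, all 11 of neuroblasts and 10 of 11 of ependymal cells were higher in SVZ. All 10 markers of oligodendrocyte precursors were higher in DG (2013 to 4010 against 86.1 to 316.8 CPM). Of these, 2 also stood in the fibroblast or the pericyte list, so these lists are not independent. Of 10 oligodendrocyte markers, 5 passed as higher in DG and 1 as higher in SVZ. Among 6 measured red cell markers, 5 were higher in DG too (159.7 to 314.6 against 107.1 to 146.3 CPM). Of 12 microglial markers, 1 was higher in DG and 4 in SVZ, with overlapping sums (315.2 to 937.2 against 403.8 to 1322 CPM). DG 3 stood apart in markers of mature neurons (1097 CPM against 205.6 to 268.1 in the other DG libraries) and DG 2 in those of neuroblasts (12820 CPM against 9066 to 9910). SVZ 1 had the lowest astroglial sum of its group (2783 CPM against 4779 to 5045) and the highest endothelial one (82.6 CPM against 17.96 to 21.1). No listed marker was at 0 reads in any library. The part of these cell types in the differences below was not tested. Precursor markers were present in both regions, with 5 of 10 higher in SVZ and 3 higher in DG (Prom1, Hes5 and Fabp7, named after their values were seen). Nes stood at 6.28 ± 0.42 log2 CPM (SD, n = 5) in DG and 7.23 ± 0.34 (SD, n = 4) in SVZ, and Sox2 at 5.08 ± 0.18 and 6.19 ± 0.14. Library totals ranged from 31126803 to 41164044 reads. Mitochondrial genes took 0.496% to 0.698% of reads in DG and 0.901% to 1.2% in SVZ, without overlap, and the part of this in the results was not tested.

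**Figure D3:**
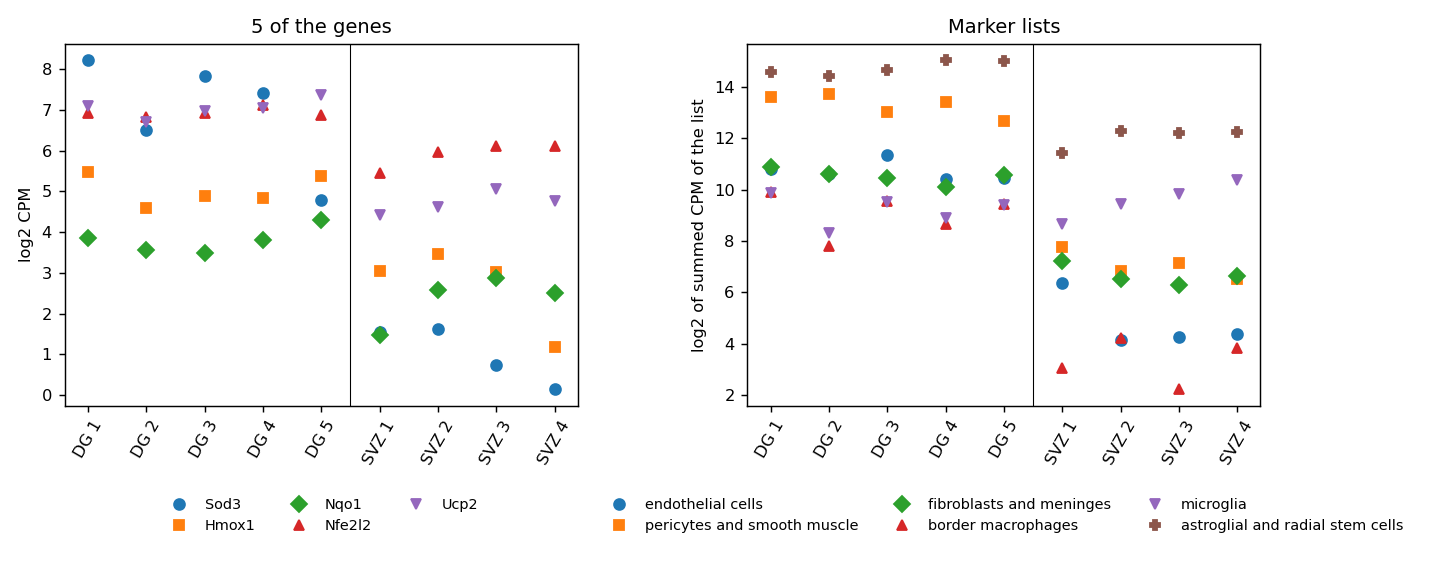
Left, log2 CPM of Sod3, Hmox1, Nqo1, Nfe2l2 and Ucp2 in each of the 9 libraries; right, log2 of the summed CPM of 6 marker lists in the same libraries, with a line between DG and SVZ. Sod3 was lowest of the DG libraries in DG 5 (4.79), where the pericyte list was also lowest of its group, and Hmox1 was lowest of the SVZ libraries in SVZ 4 (1.18).

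Sod3 (ENSMUSG00000072941, chromosome 5, 52363791 to 52371418, plus strand), the secreted superoxide dismutase, showed the largest difference of the 10 genes and the widest spread among DG libraries. Its level in DG was 8.21, 6.51, 7.83, 7.42 and 4.79 log2 CPM in libraries 1 to 5, and in SVZ it was 1.54, 1.61, 0.75 and 0.14 in libraries 1 to 4. All DG libraries lay above all SVZ libraries, but DG 5 lay well below the other DG libraries. The log2 fold change was 5.94 (SE 0.61, adjusted p = 7.75e-06), larger in size than that of 99% of genes. The SVZ values rested on 35 to 94 reads per library and the DG values on 1139 to 9990. Its SD in DG, 1.36, exceeded that of 98.9% of genes, and its SD in SVZ, 0.70, that of 90.8%. Without DG 5 the log2 fold change was 6.48. The summed pericyte and smooth muscle markers were 12449, 13589, 8358, 11017 and 6558 CPM in DG 1 to 5, so DG 5 was lowest in both, whereas DG 2 had the highest sum and the second lowest Sod3.

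Sod1 (ENSMUSG00000022982, chromosome 16, 90220754 to 90226329), the cytosolic copper and zinc enzyme, stood at 8.15, 8.21, 8.24, 8.29 and 8.47 log2 CPM in DG and 8.40, 8.64, 8.72 and 8.13 in SVZ. The groups overlapped: SVZ 4 was the lowest of all 9 libraries, and DG 5 lay above SVZ 1. Its log2 fold change was -0.20 (95% interval -0.47 to 0.07, adjusted p = 0.159). Sod2 (ENSMUSG00000006818, chromosome 17, 13006846 to 13040063), the mitochondrial manganese enzyme, overlapped too, with 6.59, 6.70, 6.58, 6.54 and 6.55 in DG and 6.67, 6.96, 6.96 and 6.56 in SVZ. Its log2 fold change was -0.20 (95% interval -0.42 to 0.03, adjusted p = 0.113), and its SD in DG, 0.06, was below that of nearly all genes (percentile 2.01). Without SVZ 4 both passed the test as lower in DG, Sod1 at -0.32 (adjusted p = 0.0216) and Sod2 at -0.27 (adjusted p = 0.0317), and the count of the 10 genes was then 7 higher in DG and 2 higher in SVZ. The log2 CPM of Sod2 minus that of Sod1 within a library, which depends on gene length and is compared only between regions, was -1.68 ± 0.16 in DG (SD, n = 5) and -1.69 ± 0.08 in SVZ (SD, n = 4).

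Levels of different genes can be compared only per length, here as reads per kilobase of merged exon on the CPM scale (RPKM). Sod1 was at 71.8 to 89.0 RPKM in DG and 70.7 to 106.2 in SVZ, and Sod2 at 9.26 to 10.4 and 9.43 to 12.4. Sod3 ranged from 7.40 to 79.5 RPKM in DG and from 0.29 to 0.81 in SVZ. At the lengths used, the Sod3 level exceeded that of Sod1 in DG 1 (79.5 against 71.8 RPKM), and in the other 8 libraries it lay below. As a share of the 3 dismutases summed per length, which does not depend on library scaling, Sod3 made up 49.4%, 22.4%, 41.5%, 34.3% and 7.0% in DG 1 to 5. In SVZ 1 to 4 it made up 0.80%, 0.71%, 0.37% and 0.36%. Sod1 accounted for 44.6% to 84.2% in DG and 87.9% to 89.2% in SVZ, with no overlap. The composition was therefore nearly constant among SVZ libraries and spread widely among DG libraries, in the order of their Sod3 level. The length of Sod1 was 3970 bases both by merged exons and by longest transcript, so the choice between these did not test it. If most Sod1 reads came from a shorter transcript, the Sod1 level would be higher and the Sod3 shares lower.

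**Figure D4:**
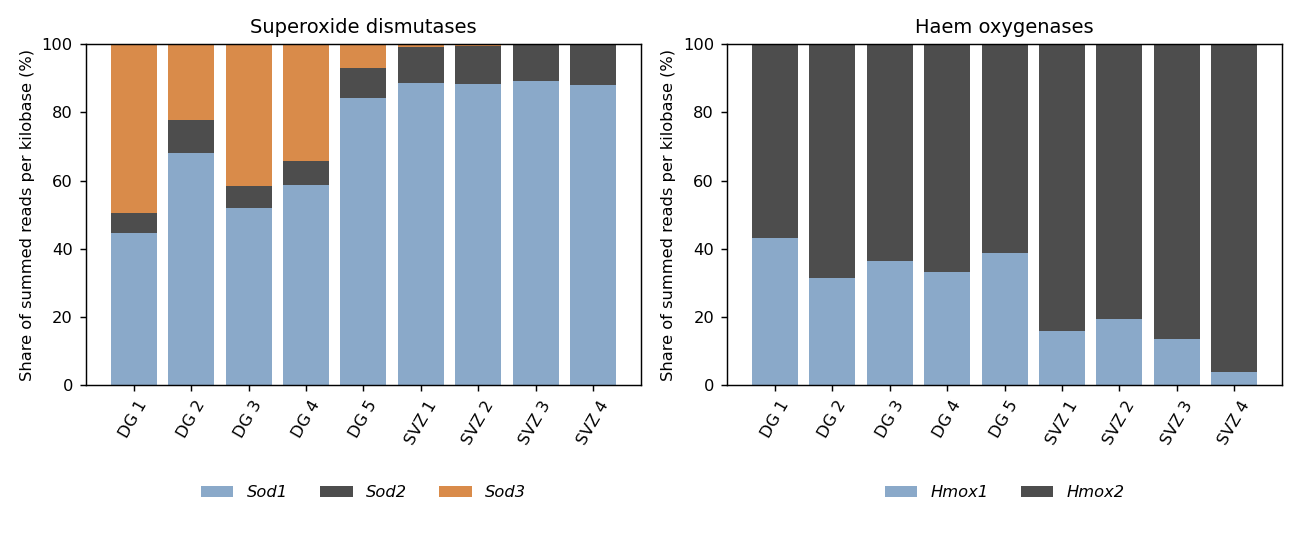
Share of each gene (vertical axis, percent) in the summed reads per kilobase of the superoxide dismutases (left) and of the haem oxygenases Hmox1 and Hmox2 (right), 1 bar per library. With merged exons as length, the Sod3 share runs from 7.0% to 49.4% in DG and stays under 1% in SVZ. The Hmox1 share is 31.4% to 43.3% in DG and 3.98% to 19.4% in SVZ.

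Dismutases need metal ions, and most genes of a list of metal handling were higher in DG, though not all of them serve the dismutases. Of 13 listed genes of copper, manganese, zinc and related metal handling, 11 were higher in DG (10 by limma voom), where 32.9% of all genes were. None was higher in SVZ by limma (0, also at an unadjusted p under 0.05 and by voom). The median log2 fold change was 0.95 against -0.07 for all genes. Atox1 and Atp7a, which carry copper to secreted enzymes, were the 2 that did not pass, at 0.31 and 0.22. The copper importer Slc31a1 stood at 7.51 ± 0.06 log2 CPM (SD, n = 5) in DG and 6.72 ± 0.14 (SD, n = 4) in SVZ (0.79, adjusted p = 1.27e-05), and its relative Slc31a2 was higher by 1.73. Ccs, the chaperone that loads copper into SOD1, was higher in DG by 0.94 (SE 0.12, adjusted p = 4.04e-05) although Sod1 was not. The log2 CPM of Ccs minus that of Sod1 within a library, again compared only between regions, was -2.65 to -2.30 in DG and -3.89 to -3.23 in SVZ, without overlap.

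Catalase (Cat, ENSMUSG00000027187, chromosome 2, 103453849 to 103485160, minus strand) showed the smallest difference that passed. It stood at 8.18, 8.24, 7.84, 8.26 and 8.34 log2 CPM in DG and 7.75, 7.95, 7.68 and 7.77 in SVZ. The groups overlapped through DG 3, which lay below SVZ 2. Its log2 fold change was 0.39 (SE 0.11, adjusted p = 0.0086), and it was 0.47 without DG 3. Per length, Cat and Sod1 had the highest mean levels of the 10 genes in both regions. Cat was at 87.8 to 124.0 RPKM in DG, above Sod1 in each DG library. In SVZ it was at 78.5 to 94.4 RPKM, below Sod1 in all SVZ libraries but SVZ 4 (83.7 against 70.7). This order rests on lengths of 2613 bases for Cat and 3970 for Sod1. It could change if most Sod1 reads came from a shorter transcript.

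Around catalase, of 16 measured peroxisomal import factors and peroxide-forming oxidases, 6 passed as higher in DG and 2 as higher in SVZ (median 0.41). The share called was 50%, against 66.6% of all genes, and the share higher in DG was near the 32.9% of all genes. The peroxisomal transporter gene Abcd3 was higher in DG by 0.75 (adjusted p = 2.95e-05). The genes higher in SVZ were Pipox, a peroxisomal oxidase of pipecolic acid and sarcosine (-2.48, adjusted p = 2.09e-05), and the import factor Pex26 (-0.53). Of 17 genes listed as regulators of Sod2 and Cat, 7 passed as higher in DG and 5 as higher in SVZ (median -0.27), and the share called, 70.6%, was near the 66.6% of all genes. Among them Epas1, a hypoxia-inducible transcription factor, was higher in DG by 4.38 and Ppargc1a, a coactivator of mitochondrial genes, by 1.25. Nrf1, which drives nuclear genes of mitochondria, and the tumour suppressor Trp53 were lower in DG (-0.76 and -0.49).

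Hmox1 (ENSMUSG00000005413, chromosome 8, 75093621 to 75100589), the inducible haem oxygenase that breaks haem into biliverdin, carbon monoxide and iron, was 5.14-fold higher in DG. It stood at 5.47, 4.59, 4.89, 4.83 and 5.39 log2 CPM in DG and at 3.04, 3.46, 3.01 and 1.18 in SVZ. The groups did not overlap, and SVZ 4 lay below the other SVZ libraries, with 73 reads against 253 to 341. The difference was 2.36 on the log2 scale (SE 0.40, adjusted p = 0.000324), and without SVZ 4 it was 1.87 (adjusted p = 5.19e-05). Border macrophage markers summed to 963.8, 221.7, 759.8, 403.3 and 699.6 CPM in DG 1 to 5 and to 8.40, 18.7, 4.72 and 14.3 CPM in SVZ 1 to 4. The DG library with the highest sum also had the highest Hmox1 and the one with the lowest sum the lowest, but DG 3 had a higher sum than DG 5 and a lower Hmox1. SVZ 4 had the lowest Hmox1 and the second highest border macrophage sum of its group. Other lists ran alongside too: the oligodendrocyte sums, 5512, 2983, 4136, 3660 and 4974 CPM in DG 1 to 5, had the same order as Hmox1. In SVZ 1 to 4 they were 1480, 2963, 2209 and 2647 CPM, again not lowest in SVZ 4. Which cells held the Hmox1 reads was not tested.

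Hmox2, the constitutive haem oxygenase, did not pass the test, at 6.17 ± 0.14 log2 CPM in DG (SD, n = 5) and 5.93 ± 0.14 in SVZ (SD, n = 4; log2 fold change 0.24, 95% interval 0.00 to 0.47, adjusted p = 0.0695). Of the 2 genes summed per length, Hmox1 made up 43.3%, 31.4%, 36.5%, 33.1% and 38.8% in DG 1 to 5 and 15.8%, 19.4%, 13.7% and 3.98% in SVZ 1 to 4. The share of the inducible gene was thus higher in every DG library than in every SVZ library, with Hmox2 the more abundant of the pair in all 9. In the list of haem and iron genes, 13 of 21 measured members passed as higher in DG and 2 as higher in SVZ (median 0.58). The share called in either direction, 71.4%, was near the 66.6% of all genes, of which 32.9% were higher in DG. Slc40a1, the iron exporter ferroportin, was higher in DG by 4.32 and the transporter gene Flvcr2 by 5.20. Ireb2, which encodes an iron-sensing RNA-binding protein, was higher in SVZ (-0.83).

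Nqo1 (ENSMUSG00000003849, chromosome 8, 107388225 to 107403206, minus strand), a quinone reductase and standard NRF2 target, showed the next largest difference among the oxidant-inducible enzymes. It stood at 3.86, 3.55, 3.48, 3.82 and 4.30 log2 CPM in DG and 1.48, 2.59, 2.88 and 2.51 in SVZ. All DG values lay above all SVZ values, and SVZ 1 was the lowest, with 88 reads against 184 to 232. Its log2 fold change was 1.44 (SE 0.28, adjusted p = 0.000868), and it was 1.14 without SVZ 1. Srxn1 (ENSMUSG00000032802, chromosome 2, 152105516 to 152111376), encoding sulfiredoxin, which restores overoxidised peroxiredoxins, stood at 4.11, 3.99, 3.84, 3.53 and 4.36 in DG and 3.08, 3.30, 3.01 and 3.35 in SVZ. The groups were separate but close, with DG 4 at 3.53 just above SVZ 4 at 3.35. Its log2 fold change was 0.78 (SE 0.18, adjusted p = 0.00243).

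Nfe2l2 (ENSMUSG00000015839, chromosome 2, 75675513 to 75704641, minus strand), the NRF2 gene itself, varied about as little among DG libraries as Sod1 (SD 0.12 for each). Its DG values were 6.94, 6.82, 6.93, 7.13 and 6.87 log2 CPM, and its SVZ values were 5.45, 5.96, 6.11 and 6.13. The DG values spanned 0.31 and the SVZ values 0.68, and the groups did not overlap. The difference on the log2 scale was 1.03 (SE 0.14, adjusted p = 6.71e-05), and 0.87 without SVZ 1, the lowest library. SVZ 1 had the lowest astroglial, oligodendrocyte and microglial sums of its group. It had the highest endothelial, pericyte, fibroblast, oligodendrocyte precursor and neuroblast sums. The part of these in the Nfe2l2 level was not tested. Keap1 (ENSMUSG00000003308, chromosome 9, 21229730 to 21239361, minus strand) stood at 5.84, 5.61, 5.70, 5.50 and 5.31 in DG and 5.56, 5.95, 5.78 and 4.95 in SVZ. The groups overlapped, and the log2 fold change was 0.03 (95% interval -0.39 to 0.45, adjusted p = 0.893). Of the exon bases of Keap1, 10.9% also lie in exons of Gm16754 on the opposite strand, and the kit did not mark strand, so reads there cannot be assigned to either gene.

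Per length, Nfe2l2 was at 29.7 to 36.9 RPKM in DG and Keap1 at 8.46 to 12.2. In SVZ 1 to 4, Nfe2l2 was at 11.5, 16.3, 18.2 and 18.4 RPKM and Keap1 at 10.04, 13.2, 11.7 and 6.59. Nfe2l2 thus lay above Keap1 in all 9 libraries, by little in SVZ 1. The log2 CPM of Nfe2l2 minus that of Keap1, compared only between regions, was 1.10 to 1.63 in DG and -0.11, 0.00, 0.33 and 1.17 in SVZ 1 to 4, so that SVZ 4, where Keap1 was lowest, reached the DG range and the other 3 did not.

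Among 16 measured partners and regulators of NRF2 and KEAP1, 10 were lower in DG and 3 higher (median -0.52), against 33.7% and 32.9% of all genes. The count of lower genes fell to 7 with TMM scaling or with a block for replicate number, and to 8 with median-of-ratios scaling. With any 1 library left out it was 7 to 9, and 7 without DG 4, without SVZ 1 or without SVZ 4. The RING subunit of the KEAP1 ligase, Rbx1, was lower in DG (-0.69, SE 0.10, adjusted p = 9.58e-05), as was the KEAP1-binding peptidase Dpp3 (-0.79). Those higher in DG were the small MAF gene Mafk (2.21), the kinase gene Fyn (1.90) and the ubiquitin ligase gene Syvn1 (0.58).

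Of 30 measured NRF2 targets other than the 10, 15 passed as higher in DG and 4 as higher in SVZ, with a median of 0.53, which left 11 that did not pass. The share called in either direction, 63.3%, was near the 66.6% of all genes. By direction, 32.9% of all genes were higher in DG and 33.7% higher in SVZ. The epoxide hydrolase Ephx1 stood at 6.93 ± 0.29 log2 CPM in DG (SD, n = 5) and 3.34 ± 0.44 in SVZ (SD, n = 4), a log2 fold change of 3.59 (SE 0.21, adjusted p = 1.34e-07). Slc7a11, which imports cystine for glutathione, was higher by 3.03 (SE 0.18, adjusted p = 1.65e-07). The 4 higher in SVZ were Txnrd1, the cytosolic thioredoxin reductase (-1.33, SE 0.11, adjusted p = 1.81e-06), the NADPH-forming enzymes Idh1 (-0.70) and G6pdx (-0.30), and the ferritin light chain Ftl1 (-0.70). Gclc and Gclm, the subunits of the enzyme that starts glutathione synthesis, did not pass, with log2 fold changes of 0.14 and -0.29. The listed targets were thus not all called in the direction of Nfe2l2, Hmox1, Nqo1 and Srxn1.

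**Figure D5:**
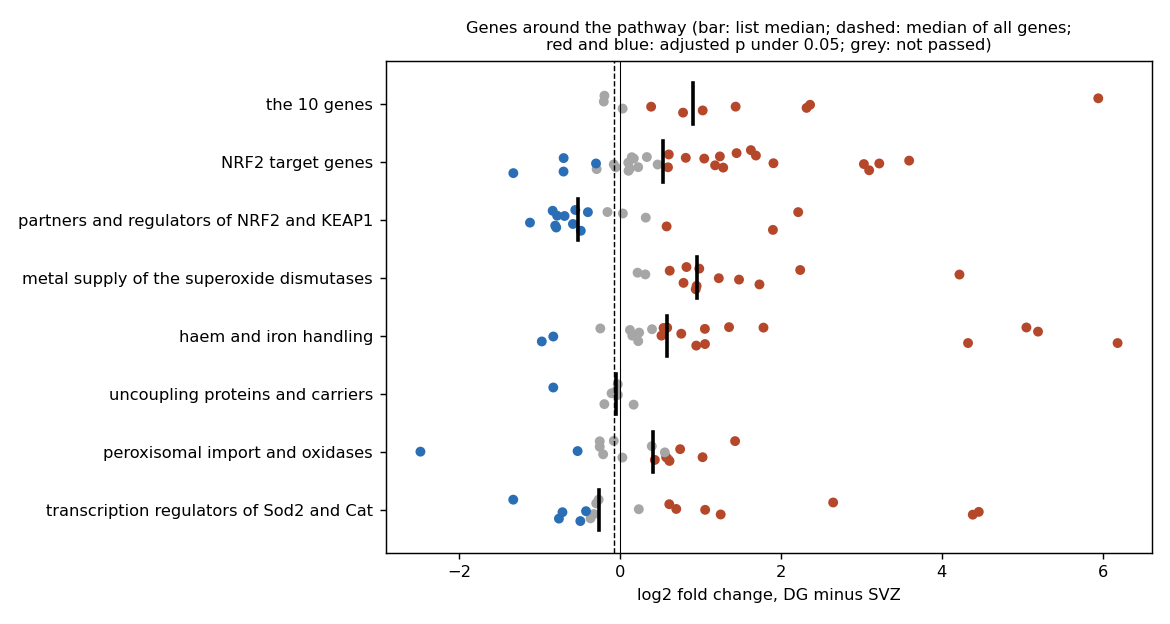
Log2 fold change, DG minus SVZ (horizontal axis), of the 10 genes and of 7 lists of related genes, each point 1 gene, coloured where the adjusted p is under 0.05 (red higher in DG, blue higher in SVZ), with the list median as a bar. The list of metal handling, labelled metal supply, has a median of 0.95 and no gene called higher in SVZ. The list of NRF2 and KEAP1 partners has a median of -0.52.

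Ucp2 (ENSMUSG00000033685, chromosome 7, 100493337 to 100502020), a carrier of the inner mitochondrial membrane that is linked to lower oxidant release, gave the smallest adjusted p of the 10 genes. It stood at 7.11, 6.70, 6.97, 7.05 and 7.37 log2 CPM in DG and 4.43, 4.62, 5.06 and 4.77 in SVZ. The regions were far apart relative to the spread within them, with SDs of 0.24 and 0.27. The log2 fold change was 2.32 (SE 0.15, adjusted p = 3.28e-07). Of its exon bases, 4.36% are shared with Dnajb13 on the opposite strand, which had 264 reads over the DG libraries and 956 over the SVZ libraries, against 24522 and 3388 for Ucp2. Of 7 other uncoupling proteins and mitochondrial carriers measured, 0 were higher in DG by limma, also at an unadjusted p under 0.05 and by voom, and 1, the brain uncoupling protein gene Slc25a27, was higher in SVZ (-0.83, SE 0.16, adjusted p = 0.000849). The list median was -0.05.

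No single library was low or high for all 10 genes. Among the DG libraries, DG 5 was the highest for 5 genes (Sod1, Cat, Nqo1, Srxn1 and Ucp2) and the lowest for 2 (Sod3 and Keap1). Among the SVZ libraries, SVZ 4 was the lowest for 5 genes (Sod1, Sod2, Sod3, Hmox1 and Keap1) and the highest for 2 (Srxn1 and Nfe2l2). Leaving out DG 5 and SVZ 4 together left 7 genes higher in DG and gave 2 higher in SVZ, Sod1 (-0.37, adjusted p = 0.00825) and Sod2 (-0.26, adjusted p = 0.0465). Leaving out DG 2 and DG 3 left the counts at 7 and 0.

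For each gene, the genes of most similar pattern over the 9 libraries were found by Pearson correlation of log2 CPM among 5517 or 5518 genes with a mean of at least 5. These correlations are descriptions, since the points share the difference between regions and the libraries. The highest were Pigs for Ucp2 (r = 0.998), Yif1b for Hmox1 (0.994), Acaa2 for Nfe2l2 (0.99), Cyth3 for Sod3 (0.989), Fxyd1 for Nqo1 (0.986), Men1 for Keap1 (0.984), Ap3m1 for Cat (0.979), Ugdh for Srxn1 (0.964), Chchd2 for Sod1 (0.954) and R3hdm4 for Sod2 (0.952). After the mean of each region was subtracted, the same pairs correlated at 0.849 (Srxn1 with Ugdh) to 0.987 (Keap1 with Men1). The pairs had been picked for high correlation over these same libraries, which favours high values here too.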

How the data were processed

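RNA was sequenced from sorted fluorescent cells of 9 samples. Per the labels' protocols, full-length cDNA primed on the poly-A tail was amplified by PCR and sheared; the library kit marks no strand, and there are no molecular identifiers. STAR, edgeR and mm10 are named by the authors, per the submitters' processing notes; their versions are not stated, and the gene counter is not given in the sources used here. These deposited values, though named counts, are log2 CPM with a prior count of 1 read, as inferred from the values: the formula returned every value within 5.33e-14, and the reads recovered from it were whole for 100% of values (tolerance 0.001). All genes exceeded 1 CPM in at least 3 libraries. No library was a copy of another: within a group, chi-square over its degrees of freedom was 19.7 to 173.

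Deposited values were tested with limma 3.58.1 in R 4.3.3, tissue as the only term and the variance prior following the mean, over all 14477 genes, with Benjamini-Hochberg adjustment and a threshold of 0.05. Since the unit is log2, this took the place of a count test. The fit was tested on simulated data whose spread between libraries was set, not estimated from these data. It recovered 7.46% of 1.5-fold, 29.9% of 2-fold and 100% of 4-fold changes, with 1 false call. These shares belong to the spread that was set, so they do not give the power of the fit on these data. A gene that did not pass may still differ between the regions. Symbols (14433 matched, 44 not), positions (1-based) and exon lengths are from GENCODE M21. Values are mean ± SD, and fold changes are DG minus SVZ.

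The 10 genes and the lists were chosen with earlier results of these data known. Named genes are the 10, up to 2 per direction of each list by adjusted p, list members needed for counts of 5 or fewer, and the first markers of a list. Ccs, Gclc and Gclm, and the differences within a library, were chosen after their values were seen. The closest genes by correlation had a symbol that is no clone or predicted-gene name. Some genes that this rule names are not reported here. Whether samples of the same number share an origin is not stated, and the main fit did not pair them.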

Additional observations from a re-analysis of the deposited data

Results flagged for a closer look

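Among the 10 genes and the 23 genes named from the lists, each group of libraries was checked for 1 value far from the others, 66 groups in all, of which chance gives about 1 in 20. No group of the 10 genes held such a value, and 4 groups of the listed genes did. Mafk in SVZ 4 was at 0.18 log2 CPM, where the other SVZ libraries were at 1.76 to 1.85. Epas1 in SVZ 4 was at 3.32, against 4.69 to 4.76. Ephx1 in DG 5 was at 6.43, against 6.98 to 7.19 in the other DG libraries. Nrf1 in DG 5 was at 6.35, against 6.65 to 6.70.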

How the results depend on the processing

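The 7 genes higher in DG kept their direction and their call under all 19 alternatives: limma voom on recovered reads, TMM and median-of-ratios scaling, prior counts of 5 and 0.25 reads, a filter at mean 3 log2 CPM, no mean-variance trend, the replicate block, each library left out, and both pairs of libraries left out, which were chosen after seeing the data. Their highest adjusted p was 0.0355, for Cat. Over libraries left out, the count higher in SVZ ran from 0 to 2, Sod1 from -0.32 to -0.12, Sod2 from -0.27 to -0.14 and Keap1 from -0.17 to 0.16. Without SVZ 4, Keap1 reversed to -0.17, and without DG 1 to -0.03. Without DG 5 and SVZ 4, the count higher in SVZ was 2, with Sod1 at -0.37, Sod2 at -0.26 and Keap1 at -0.10; without DG 2 and DG 3, Keap1 was -0.012. With the filter at mean 3 log2 CPM, which tests fewer genes, 2938 genes passed as higher in DG, and 3 regulators of Sod2 and Cat as higher in SVZ. Of the uncoupling list, 1 to 2 genes were higher in SVZ over libraries left out, and 2 without DG 5 and SVZ 4. With the longest transcript as length, the Sod1 share in SVZ was 82.2%, although the length of Sod1 itself was the same. The cause of these changes was not tested.

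Deviations of same-numbered samples correlated at -0.17 to 0.01 across genes, and those of differently numbered samples at up to 0.23. No pairing by number showed in these values, which cannot exclude that same-numbered samples share an origin. With the replicate block, in which DG 5 has no partner and does not bear on the contrast, the calls among the 10 genes stayed at 7 and 0, those over all genes came to 4513 for DG and 4273 for SVZ, and 1 haem and iron gene was higher in SVZ. With 35 to 94 reads per SVZ library, depth limits Sod3 in SVZ most.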
